A study of Mus musculus with 6 samples.

Results

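The miR-101 family of the mouse brain was described here through 3 mature miRNAs, mmu-miR-101a-3p, mmu-miR-101b-3p and mmu-miR-101a-5p (written below without the species prefix), and through the read forms that carry their names. Members were all read sequences whose miRNA label was one of these names, which gave 3 of 1101 miRNA labels and 735 of 143934 read sequences. miR-101a-3p had 477 sequences, miR-101b-3p had 215 and miR-101a-5p had 43, and none of them carried a second label. The family was chosen with the gain of miR-101a-3p in older brains already known, so every difference between the ages is given below as a description with no test. Seeds and read lengths were part of how the family was chosen for description, and their differences between the members are likewise given with no test.

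Libraries were made from small RNAs bound to Argonaute (Ago) proteins in the cortex and hippocampus, combined, of BL6 mice (C57BL/6J background). Ago proteins hold the small RNA in the RNA-induced silencing complex (RISC), and Ago1-4 were pulled down with a peptide of GW182. There were 3 libraries of mice 2 months old (2M) and 3 of mice 18 months old (18M), with no transgene or treatment named for either age. The labels do not say whether a library came from 1 animal or several, so p-values measure only the spread between these libraries, which may in part be technical.

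The miRNAs described here are cut from 2 hairpins and bind messenger RNAs through the seed, the bases that follow the first base of the miRNA. They are best known for repressing the histone methyltransferase Ezh2, and in neurons they have been tied to the control of excitability and of the amyloid precursor protein. Where Drosha or Dicer cuts 1 base earlier or later the miRNA gets another 5' end, a 5' isomiR, and with it another seed. Bases can also be added to the 3' end by terminal nucleotidyl transferases, and such untemplated bases leave the seed as it is.

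Mir101a lies on chr4:101346945-101347027 (GRCm38, minus strand), inside exon 2 of the lincRNA E130102H24Rik. Mir101b lies on chr19:29135279-29135375 (plus strand), within an intron of the protein-coding gene Rcl1. The mature sequences of RefSeq (GRCm38.p6) are shown here because both 3p miRNAs hold the same bases at different places, with the seed (bases 2 to 8) in capitals, next to miR-144-3p, a miRNA of red blood cells with the same bases 2 to 7 as miR-101a-3p.
miR-101a-3p: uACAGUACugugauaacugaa
miR-101b-3p: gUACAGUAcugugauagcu
miR-101a-5p: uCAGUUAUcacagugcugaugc
miR-144-3p: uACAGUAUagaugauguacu

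RefSeq thus starts miR-101b-3p 1 base earlier than miR-101a-3p. In the libraries both starts were used by both miRNAs. Positions are counted from 1 at the earlier of the 2 starts, called the first start, which was that of the most abundant miR-101a-3p read. The second start is 1 base later. The first difference between the miRNAs from the first start was A17G (base of miR-101a-3p, position, base of miR-101b-3p), so that every read of 18 bases or more tells them apart. The main reads of each start are shown with the 6mer seed of the read (bases 2 to 7) in capitals.
miR-101a-3p, first start, 21 nt: gTACAGTactgtgataactga
miR-101a-3p, second start, 20 nt: tACAGTActgtgataactga
miR-101b-3p, first start, 21 nt: gTACAGTactgtgatagctga
miR-101b-3p, second start, 22 nt: tACAGTActgtgatagctgaag
miR-101a-5p, 22 nt: tCAGTTAtcacagtgctgatgc

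The deposited table pairs each 6mer seed with a viability, which is how many percent of cells survived an siRNA carrying that seed, as the mean of 3 mouse cell lines. A low value is called a toxic seed. The first start gave the seed UACAGU with a viability of 61.1, and the second start gave ACAGUA with a viability of 86.2. A rare later start, 2 bases after the first, gave CAGUAC with a viability of 45.2.

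All 6 libraries held between 19272046 and 25080484 reads, and values are in RPM, reads scaled to the same total in each library. Over the whole table, limma on log2(RPM + 1) called 23 of 474 miRNA labels with a mean of at least 10 RPM at an adjusted p under 0.05 (4.85%), 21 of them lower at 18M. This count was 0 to 15 over fits of 5 libraries, with 0 if 2M replicate 2 or 2M replicate 3 was dropped (limma, 73 and 81 at an unadjusted p under 0.05) and 15 if 18M replicate 2 was dropped. It was 1 with a replicate block and 46 with DESeq2 on recovered reads. Marker miRNAs of neurons summed to 236303 to 251786 RPM at 2M and to 211301 to 268408 RPM at 18M, and no miRNA of the marker lists had a mean at or under 1 RPM. Of the lists, that of microglia and immune cells did not overlap between the ages, with 3401 to 3825 RPM at 2M and 2458 to 2997 RPM at 18M, and the summed levels of the other lists overlapped. Taken singly, 1 of its 5 miRNAs, 1 of 5 of the neuron list and 2 of 4 of the vessel list were lower at 18M without overlap, and 1 of 4 of the choroid plexus list was higher, beside 19.2% of all 474 labels that were lower and 5.7% that were higher in this way. In whole tissue, fewer cells of a type and less RNA per cell cannot be told apart.

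The 2 strands of the hairpins were present at very different levels. miR-101a-3p had a mean of 10671 RPM over the 6 libraries and was the 24th most abundant of all miRNA labels. miR-101b-3p had a mean of 2795 RPM and was the 62nd, and miR-101a-5p, the other strand of the Mir101a hairpin, had a mean of 158 RPM and was the 247th. miR-101b-5p, the other strand of Mir101b, was at a low level with a mean of 2.42 RPM, or 32 to 77 reads per library. Reads of miR-101a-3p outnumbered those of miR-101a-5p by 43.3 to 89.1 to 1, and those of miR-101b-3p outnumbered miR-101b-5p by 933 to 1655 to 1. No label of miR-101c was present in the table. The order of the 4 labels was the same in each of the 6 libraries, since no library's value of a lower label reached that of a higher one.

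miR-101a-3p was measured at 8170, 7027 and 10494 RPM in the 3 libraries of 2M and at 13981, 11608 and 12748 RPM in those of 18M. All 18M libraries lay above all 2M libraries. The means were 8564 ± 1766 and 12779 ± 1187 RPM (SD, n = 3), a 1.49-fold difference, or 0.59 ± 0.17 (SE, limma) on the log2(RPM + 1) scale. Since this gain is what the family was picked for, nothing is read from it beside the 5.7% of 474 labels whose 18M libraries all lay higher and the 19.2% whose 18M libraries all lay lower. The microglia and immune marker list was lower at 18M without overlap, and its part in the level of miR-101a-3p was not tested.

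miR-101b-3p, from a hairpin on another chromosome, was measured at 2333, 2111 and 2691 RPM at 2M and at 3528, 2824 and 3282 RPM at 18M. Again the ages did not overlap, and the means of 2378 ± 292 and 3211 ± 357 RPM (SD, n = 3) differed 1.35-fold, or by 0.43 ± 0.15 on the log2 scale. The lowest 2M library and the lowest 18M library were the same for both 3p miRNAs, replicate 2 at each age. The ratio of miR-101a-3p to miR-101b-3p lay between 3.33 and 4.11 in the 6 libraries and overlapped between the ages.

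For miR-101a-5p, the partner strand, the ages overlapped. It was measured at 140.5, 162.2 and 143.1 RPM at 2M and at 195.0, 130.2 and 175.9 RPM at 18M. The lowest value of all was in 18M replicate 2, and the difference of the means was 0.15 ± 0.17 (SE) on the log2 scale. Levels of miR-101b-5p, between 1.28 and 3.52 RPM, overlapped as well. The plot of levels by library shows these values.

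**Figure D1:**
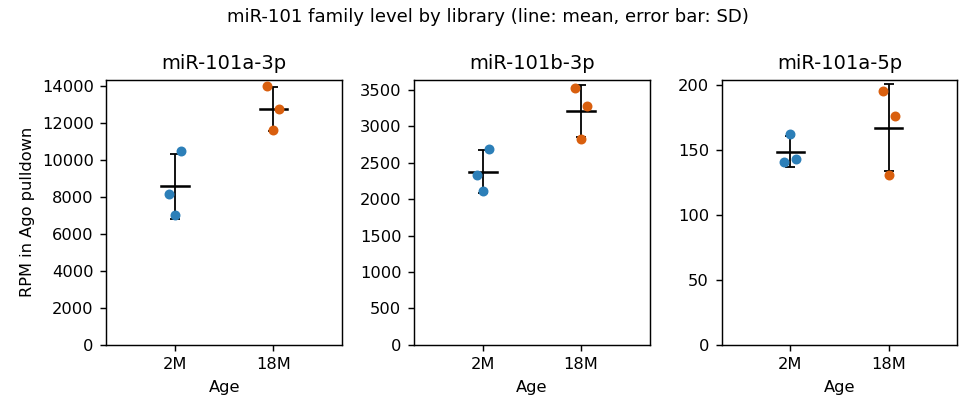
Level of each family member in RPM (vertical axes, each starting at 0) in the 3 libraries of 2M and the 3 of 18M, with the mean as a line and the SD as an error bar. For miR-101a-3p and miR-101b-3p all 18M points lie above all 2M points, while the points of miR-101a-5p overlap between 130.2 and 195.0 RPM.

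The miRNA whose profile over the 6 libraries was most like that of miR-101a-3p was miR-101b-3p. Likeness was the root mean square difference of log2(RPM + 1) after each miRNA was centred on its own mean, over 275 other labels with a mean of at least 100 RPM. It was 0.107 for miR-101b-3p against a median of 0.436, and then 0.177 for miR-365-3p, 0.179 for miR-29a-3p, 0.179 for miR-3102-3p and 0.189 for miR-346-5p. miR-101a-5p came 49th with 0.328. The age difference itself enters this measure, so it is a description.

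Both 3p miRNAs began at 2 neighbouring bases in large proportions. Each library held at least 171540 reads of miR-101a-3p and 48975 of miR-101b-3p, at which a share of 50% has a Wilson 95% half-width of 0.237 and 0.443 percentage points, for counting error only. Of the miR-101a-3p reads, 53.7% (mean of 6 libraries) carried ACAGUA and 45.2% carried UACAGU, so neither seed was a minor form. CAGUAC made up 0.481%. Most miRNAs had a far more uniform 5' end: over 270 labels at 100 RPM or more on average the median share of reads outside the most abundant seed was 3.21%. With all libraries pooled that share was 46.0% for miR-101a-3p, the 13th highest, 31.4% for miR-101b-3p, the 26th, and 15.9% for miR-101a-5p, the 47th.

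miR-101a-3p and miR-101b-3p used the starts in different proportions, although the first base that differs between them is at position 17. The share of reads that did not begin at the first start was 54.3%, 52.2% and 53.6% for miR-101a-3p at 2M and 55.7%, 55.4% and 57.3% at 18M. For miR-101b-3p it was 69.4%, 71.5% and 65.0% at 2M and 69.8%, 67.0% and 70.7% at 18M. All values of miR-101b-3p were higher than all values of miR-101a-3p. The difference within the library was 14.2 ± 2.90 percentage points (SD, n = 6) and was positive in 6 of 6 libraries. RefSeq's own start, the second for miR-101a-3p and the first for miR-101b-3p, was thus the more used start for miR-101a-3p and the less used for miR-101b-3p. Reads identical to the RefSeq sequence made up 7.22% of miR-101a-3p, 0.431% of miR-101b-3p and 43.9% of miR-101a-5p.

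**Figure D2:**
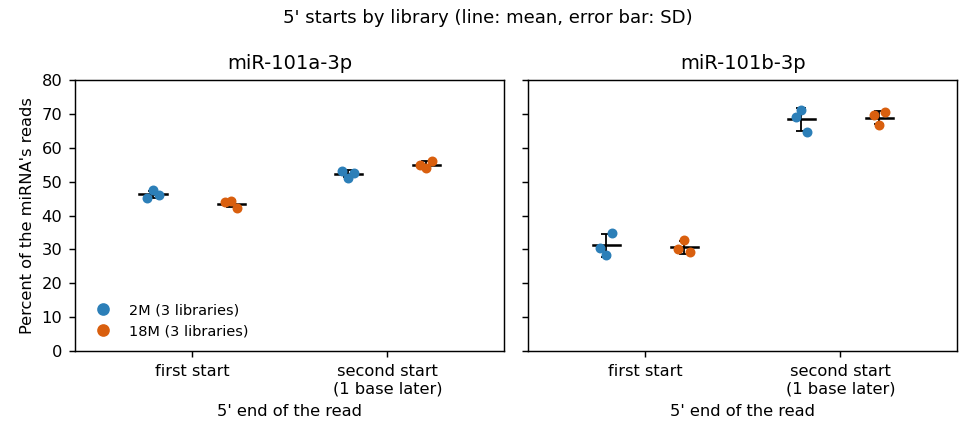
Percent of the reads of miR-101a-3p and miR-101b-3p that began at the first start or 1 base later, by library, with the mean as a line and the SD as an error bar for each age. The second start took 51.2% to 56.1% of miR-101a-3p reads and 64.7% to 71.2% of miR-101b-3p reads.

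Between the ages the starts of miR-101a-3p moved little. ACAGUA made up 53.3%, 51.2% and 52.6% of its reads at 2M and 54.8%, 54.1% and 56.1% at 18M, which did not overlap, and UACAGU made up 45.6%, 47.7% and 46.3% at 2M and 44.2%, 44.5% and 42.6% at 18M. The difference was 2.63 percentage points for ACAGUA. Of 270 labels, the share of the most abundant seed lay higher in all 18M libraries for 9.63% and lower for 4.81%. These shares belong to the miRNA that was picked for its age difference, and nothing is read from them. In miR-101b-3p the share of ACAGUA overlapped between the ages, with 69.1%, 71.2% and 64.7% at 2M and 69.6%, 66.6% and 70.4% at 18M.

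Weighted by reads, the mean seed viability of miR-101a-3p was 74.2 ± 0.260 at 2M and 74.9 ± 0.229 at 18M (SD, n = 3). For miR-101b-3p it was 78.3 ± 0.829 and 78.4 ± 0.498. A library's miR-101a-3p therefore held the seeds of 61.1 and 86.2 side by side, and the mean over the label lay between them.

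Both seeds were abundant at each age. ACAGUA reads of miR-101a-3p were at 4352, 3600 and 5524 RPM at 2M and at 7658, 6285 and 7150 RPM at 18M, 1.57-fold apart. UACAGU reads were at 3724, 3350 and 4862 RPM at 2M and at 6186, 5169 and 5431 RPM at 18M, 1.41-fold apart. Both are sums over the miRNA picked for its gain, and nothing is read from their age differences.

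The family supplied most of the reads of these seeds in the RISC. All reads with ACAGUA summed to a mean of 8476 RPM, of which miR-101a-3p gave 68.0%, miR-101b-3p 22.6% and miR-144-3p 7.89%. All reads with UACAGU summed to 6116 RPM, of which miR-101a-3p gave 78.3%, miR-101b-3p 14.3%, miR-582-5p 3.01% and miR-139-5p 1.62%. miR-144-3p, which shares the 6mer seed of the second start, was measured at 834, 1288 and 556 RPM at 2M and at 787, 282 and 588 RPM at 18M. Its ranges overlapped, and its lowest value was in 18M replicate 2. The summed level of all ACAGUA reads, miR-144-3p included, was 6848, 6399 and 7890 RPM at 2M and 11009, 8561 and 10148 RPM at 18M, with most of these reads from miR-101a-3p. The list of erythrocyte markers, of which miR-144-3p is a member, summed to 2550 to 3689 RPM at 2M and to 1307 to 2892 RPM at 18M, and its part in these sums was not tested.

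miR-101a-5p had its own pair of starts. CAGUUA, with a viability of 75.8, made up 84.0% of its reads, and AGUUAU, 1 base later with a viability of 66.3, made up 15.5%. The top read of the second seed, at a mean of 8.60 RPM, is shown with its 6mer seed in capitals.
miR-101a-5p, second start, 21 nt: cAGTTATcacagtgctgatgc
Of all CAGUUA reads, 84.5% came from miR-101a-5p and 14.4% from miR-935, and of all AGUUAU reads 99.3% came from miR-101a-5p.

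Most reads of both 3p miRNAs were 21 or 22 nt long. miR-101a-3p reads were 22 nt long in 41.9%, 21 nt in 36.9% and 20 nt in 15.4% of cases, and miR-101b-3p reads were 22 nt in 53.5%, 21 nt in 23.96%, 20 nt in 12.0% and 23 nt in 9.15%. The mean length was 21.31 ± 0.0512 nt for miR-101a-3p and 21.58 ± 0.0730 nt for miR-101b-3p (SD, n = 6). miR-101b-3p was longer in 6 of 6 libraries, by 0.272 ± 0.0553 nt (SD of the difference within the library). Library RNA was size-selected on a gel before sequencing, so the shortest and longest reads may be under-represented for both.

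**Figure D3:**
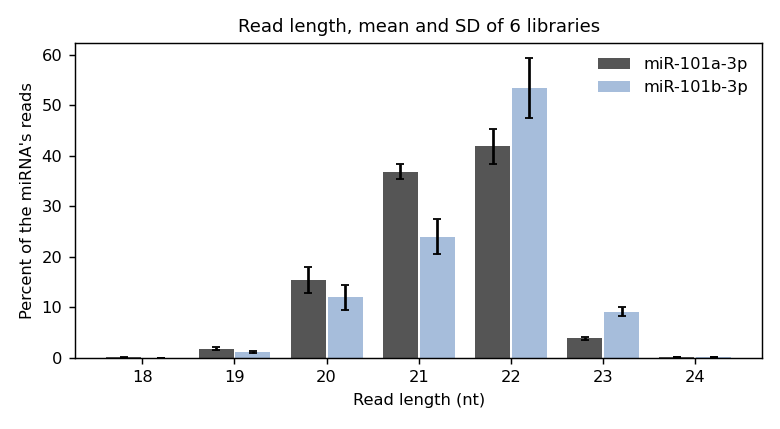
Percent of reads of each length in nt for miR-101a-3p and miR-101b-3p, as the mean of 6 libraries with the SD as an error bar. Both peak at 22 nt, with 53.5% of miR-101b-3p and 41.9% of miR-101a-3p, and the 21 nt class is larger in miR-101a-3p.

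The 3' ends were then compared with the hairpins. A read was called untemplated when at least 18 bases from its 5' end matched its own hairpin and the last base or bases did not. An added base that equals the next base of the hairpin cannot be seen this way. Of miR-101a-3p reads, 26.7% ± 3.32 (SD, n = 6) were untemplated, and of miR-101b-3p reads 20.2% ± 2.41. Over all starts together, the share was lower for miR-101b-3p in 6 of 6 libraries. The difference was -6.49 ± 1.73 percentage points (exact two-sided paired permutation test, p = 0.03125, the smallest possible with 6 libraries). The adjusted p of this test, 0.03125 over the 3 measures computed, also rests on starts and lengths, so nothing is read from it. In the first start, untested, the order was reversed, with 14.9% to 18.5% for miR-101b-3p and 6.73% to 8.48% for miR-101a-3p. In the second start the shares were 17.6% to 27.7% and 37.7% to 52.0%. The tested difference thus also depends on how often each start was used. Over 226 labels at 100 RPM or more on average and with a hairpin the median share of untemplated reads was 10.4%. With all libraries pooled, miR-101a-3p ranked 31st at 27.1%, miR-101b-3p 42nd at 20.3% and miR-101a-5p 160th at 5.71%.

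The untemplated reads of miR-101a-3p fell unequally on its 2 starts. In the first start 7.59% of reads had an untemplated end, and in the second 42.4% had (means of 6 libraries). The second start was higher in 6 of 6 libraries, by 29.2 to 44.6 percentage points. For miR-101b-3p the shares were 16.97% and 21.8%, with the second start higher by 1.03 to 9.16 points. This comparison between starts was made after the values were seen and has no test.

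In the second start of miR-101a-3p a single added T was more frequent than any other tail. It was present on 24.3% of the second-start reads of miR-101a-3p and on 1.54% of the first-start reads, and on 11.4% and 8.81% of the second-start and first-start reads of miR-101b-3p. The form behind it ranked 3rd among the miR-101a-3p reads. It is shown here with the added base in capitals, below the 21 nt read it extends and above the 22 nt read that the hairpin encodes.
second start, 21 nt, no tail: tacagtactgtgataactgaa
second start, 22 nt, T tail: tacagtactgtgataactgaaT
second start, 22 nt, no tail: tacagtactgtgataactgaag
first start, 22 nt, no tail: gtacagtactgtgataactgaa

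These reads allow the starts to be compared at the same 3' end, since the first and the last of the 4 end at the same base of the hairpin, base 22 from the first start. Among second-start reads whose last template base was base 22, 52.7% carried the T tail, with 43.9%, 55.9% and 45.6% at 2M and 53.4%, 60.1% and 57.5% at 18M. Among first-start reads with that last base the share was 2.72%, between 1.92% and 3.19% in the 6 libraries. The lowest second-start library lay far above the highest first-start library. In RPM, the tail was on 1371 RPM against 770 RPM without a tail in the second start, and on 33.8 RPM against 991 RPM in the first start.

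miR-101b-3p, whose template is the same from base 18 to base 22, showed the same order of the starts at base 22, with a lower share in the second start. There the T tail was on 15.8% of second-start reads with that last base, between 11.7% and 21.4%, and on 2.46% of first-start reads, between 1.70% and 3.06%. At the same base an added A had the opposite order between the miRNAs. It was on 9.72% of second-start reads of miR-101a-3p and on 28.2% of those of miR-101b-3p. First-start reads with that last base carried it in 14.4% and 19.6% of cases. For the T tail the order depended on the last base. At base 21 it was on 11.4% of first-start reads of miR-101b-3p (9.80% to 13.2%) and on 3.53% of its second-start reads (2.22% to 6.23%). At base 23 it was on 13.3% of second-start reads of miR-101b-3p, against 4.95% of those of miR-101a-3p.

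**Figure D4:**
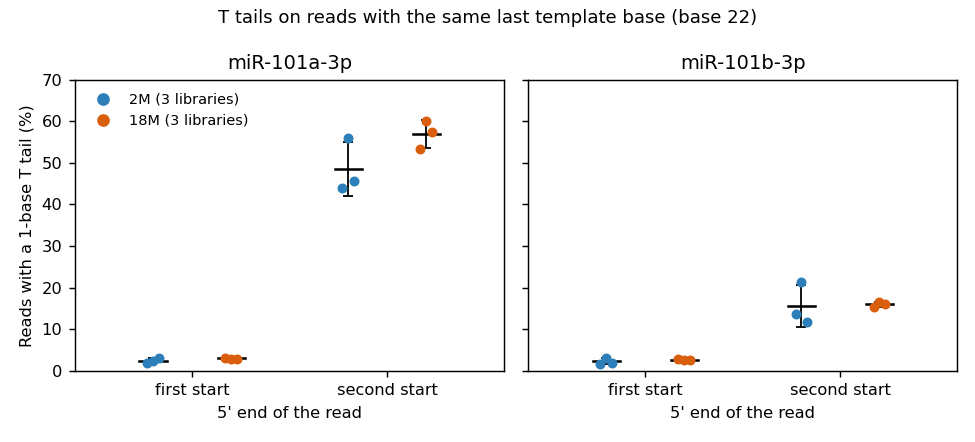
Percent of reads with a 1-base T tail among reads whose last template base was base 22 from the first start, by start, miRNA and library, with the mean as a line and the SD as an error bar. For miR-101a-3p the second start lies between 43.9% and 60.1% and the first start between 1.92% and 3.19%, and for miR-101b-3p between 11.7% and 21.4% and between 1.70% and 3.06%.

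The T-tailed read had the largest age difference in fold among the 6 most abundant reads of miR-101a-3p. It was measured at 790, 670 and 1078 RPM at 2M and at 1723, 2005 and 1960 RPM at 18M. All 18M libraries lay above all 2M libraries, and the means of 846 ± 209 and 1896 ± 152 RPM (SD, n = 3) were 2.24-fold apart. The templated read of the same start and length was at 974, 1141 and 903 RPM at 2M and at 1448, 752 and 1369 RPM at 18M. Its ages overlapped, with 18M replicate 2 the lowest of all, and its means were 1.18-fold apart.

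The 21 nt first-start read, the most abundant of the family, was at 2271, 1987 and 3113 RPM at 2M and at 3945, 3292 and 3415 RPM at 18M, 1.44-fold apart with no overlap. The 20 nt second-start read overlapped, with 890, 672 and 1662 RPM at 2M and 2146, 1346 and 1536 RPM at 18M. Reads of 22 nt from the first start and of 21 nt from the second start, both without a tail, did not overlap and were 1.36-fold and 1.51-fold higher at 18M. Of the 3281 read sequences at 10 RPM or more on average, 11.5% were higher in all 18M libraries and 9.45% were lower in all of them. These reads belong to a miRNA picked for its gain, so 4 of 6 reads without overlap is no result about them.

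**Figure D5:**
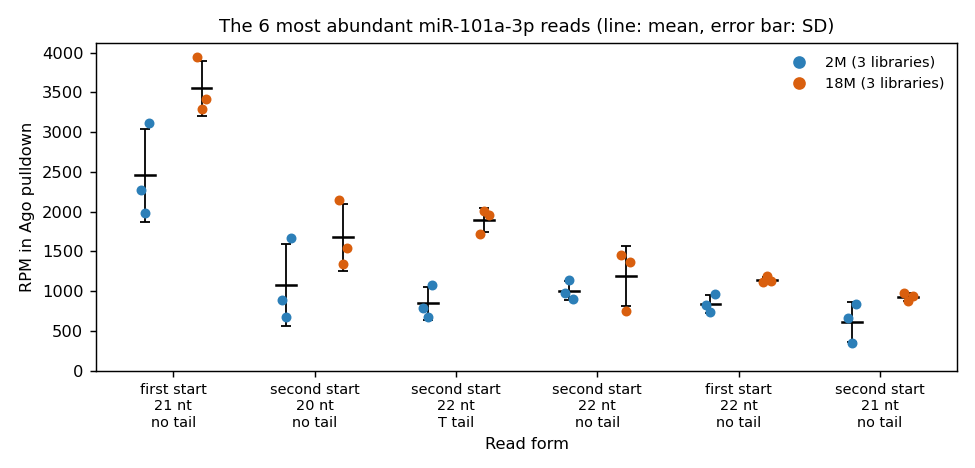
RPM of the 6 most abundant miR-101a-3p reads in each library, named by start, length and tail, with the mean as a line and the SD as an error bar for each age. The T-tailed 22 nt read lies at 670 to 1078 RPM at 2M and at 1723 to 2005 RPM at 18M, whereas the 22 nt read of the same start without a tail overlaps between the ages.

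As a share, a 1-base T tail was on 11.3%, 11.3% and 11.7% of all miR-101a-3p reads at 2M and on 13.9%, 19.1% and 17.02% at 18M. These ranges did not overlap. Within the second start the share was 19.7%, 19.9% and 20.7% at 2M and 23.6%, 33.3% and 28.5% at 18M, while within the first start it was 1.54% and 1.55% on average at 2M and 18M. The 2M libraries were close together and 18M replicate 2 was the highest. Among second-start reads with base 22 as the last template base, as given above, the ages overlapped. There 2M replicate 2 with 55.9% lay above 18M replicate 1 with 53.4%.

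Other miRNAs give the background for this share. Of 226 labels, 10.2% had a higher share of 1-base T tails in all 18M libraries and 9.29% a lower one. Over the reads of 856 other miRNA labels together, a T tail was on 3.95% at both ages (SD 0.207 at 2M and 0.121 at 18M, n = 3). In miR-101b-3p the share was 10.1% ± 0.438 at 2M and 11.0% ± 1.59 at 18M, and the ages overlapped. Pooled over the libraries, miR-101a-3p ranked 25th of 226 labels for T tails with 14.5%, miR-101b-3p 37th with 10.6% and miR-101a-5p 133rd with 2.08%, against a median of 3.14%.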

How the data were processed

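Ago-RP-Seq libraries of 6 samples, 3 of 2M and 3 of 18M, were analysed from the table that the authors deposited. The authors trimmed the reads (Trim Galore is named in the submitters' processing notes, with no version), collapsed identical reads, labelled them with the SPOROS pipeline and deposited each sequence as RPM. The deposited seed viability is a score, in percent of surviving cells, and a deposited total per sequence, a signal summed over libraries, was not used in any comparison. The genome build of the labelling is not given in the sources used here. No per-sample column lay outside the 6 libraries.

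All values (100%) were within 0.017 of a step of a whole number of steps, the step being the RPM of a single read,, so whole reads were recovered, 19272046 to 25080484 per library. A floor of 3 reads was 0.120 to 0.156 RPM. Floors and intervals cover counting error only, since reads had no molecular identifiers.

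Groups came from the sample titles. The members, the marker lists and the tests were chosen with earlier results of these data known. RPM were summed per label, seed, start, length and read. Starts and untemplated ends came from matches of at least 18 bases to the hairpins of RefSeq. Host genes and exons came from GENCODE M21 (GRCm38). Reads with a mismatch in those bases were left out of tail shares and of the share of reads not at the first start. All miRNA labels with a mean of at least 10 RPM were fitted with limma 3.58.1 (lmFit, eBayes with trend, Benjamini-Hochberg) on log2(RPM + 1), and 3 measures of the 3p miRNAs were compared within libraries by exact sign flips, of which the p is given only for untemplated ends, since the family was chosen with its seeds and lengths in view. The limma, edgeR and DESeq2 fits were tested on simulated data, and the sign flips were checked on fixed series of numbers with a known answer. Alternatives were other pseudocounts, filters and scalings, a replicate block, edgeR 4.0.16 and DESeq2 1.42.0 on the recovered reads, and fits that each lacked a single library. The alternatives for the T-tailed read were added after the data had been seen. The named reads were the 6 most abundant of miR-101a-3p, the 3 most abundant of each other member and the top read of each seed with at least 1% of a member's reads. Named miRNAs gave at least 1% of such a seed's reads or were the 5 most like miR-101a-3p in profile. Python 3.11.15, numpy 2.4.6, pandas 2.3.3, matplotlib 3.10.9 and R 4.3.3 were used.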

Additional observations from a re-analysis of the deposited data

Results flagged for a closer look

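Reads of the Mir101b hairpin that began at the third start, 2 bases after the first, carried no miRNA label and so belonged to no member. They were measured at 32.1, 28.1 and 33.0 RPM at 2M and at 45.6, 42.3 and 50.8 RPM at 18M, with a mean of 38.6 RPM over 21 sequences, far above the level of 3 reads (0.1196 to 0.156 RPM). This was 1.38% of the labelled miR-101b-3p reads, and no read from that start carried the label of miR-101b-3p. Reads of Mir101a from the third start did carry the label of miR-101a-3p and had a mean of 51.9 RPM over 23 sequences. The unlabelled Mir101b reads stand out because the comparisons of miR-101b-3p do not use them. In all, 832 sequences with a mir-101 annotation carried no miRNA label. They had a mean of 298 RPM, or 2.19% of the labelled reads of the family, with 207 to 288 RPM at 2M and 325 to 373 RPM at 18M.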

How the results depend on the processing

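The log2 age difference of each member kept its sign under the other pseudocounts, scaling and a minimum mean of 1 RPM per sequence. It was 0.59 to 0.69 for miR-101a-3p, 0.43 to 0.53 for miR-101b-3p and 0.14 to 0.25 for miR-101a-5p. The replicate block and the filter for reads with a single label could not change these differences. Every replicate number is present at each age, and no member read had a second label. Leaving out each library gave 0.46 to 0.75, 0.35 to 0.53 and 0.029 to 0.32. The lowest value of miR-101a-5p came without 18M replicate 1, the highest without 18M replicate 2. The T-tailed read differed by 1.19 on that scale, by 1.29 after median-of-ratios scaling and by 1.03 to 1.38 with a library left out, and its share of second-start reads by 8.40 percentage points, or 5.999 to 10.8.

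The number of miRNA labels with an adjusted p under 0.05 was 23 (2 higher and 21 lower at 18M) and depended on the settings. It was 14 with median-of-ratios scaling, 14 with edgeR on recovered reads, 46 with DESeq2 (15 higher and 31 lower), 2 over labels with a mean of at least 100 RPM, and 22 to 23 with other pseudocounts or a minimum mean of 1 RPM. With 5 of the 6 libraries it was 0 to 15. It was 0 if 2M replicate 2 or 2M replicate 3 was dropped (limma, with 73 and 81 labels at an unadjusted p under 0.05), 1 if 18M replicate 1 or 18M replicate 3 was dropped, 3 if 2M replicate 1 was dropped and 15 if 18M replicate 2 was dropped. The cause was not tested. With the replicate block it was 1. Replicate numbers were not used as pairs in the main fit. Same-numbered libraries of the 2 ages had correlations of -0.169, -0.221 and -0.100 over 474 labels, and differently numbered ones of -0.101 to 0.177. With 3 libraries per age these values cannot show whether a replicate number marks anything the ages share.

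The filter for reads with a single label could not change the 3 differences between miR-101b-3p and miR-101a-3p. Requiring a read to reach beyond the first base that differs also left each value as it was, so neither filter says how stable the differences are. A minimum mean of 1 RPM per sequence gave 14.3 percentage points for the starts, 0.270 nt for length and -6.92 points for untemplated ends. Under it the 3 differences kept their direction, and that in untemplated ends its side of the threshold. With a library left out they were 13.1 to 14.7 percentage points for the starts, 0.259 to 0.287 nt for length and -6.98 to -5.95 points for untemplated ends, and with 5 libraries the smallest p the test of untemplated ends can give is 0.0625.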
